A study of Mus musculus with 48 samples.

Results

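The genes described here are 6 receptors and 1 enzyme of purinergic signalling that microglia are known for, P2ry12, P2ry13, P2ry6, P2rx4, P2rx7, Gpr34 and Entpd1. They were chosen by name, and all 7 were found among the 16014 genes of the RPKM table (reads scaled to gene length and library size). All 7 also passed the filter on low values that left 15975 genes for testing.

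Bulk RNA-seq was performed on cortex, hippocampus and thalamus of C57BL/6 mice in 4 groups, with 4 libraries per group and region, 48 in all. Wild-type and 5xFAD mice ate control chow (the vehicle), and Wild-type + PLX5622 and 5xFAD + PLX5622 mice ate chow with 1200 ppm PLX5622 between the ages of 1.5 and 7 months. All 48 libraries, those of untreated mice included, came from mice aged 7 months. 5xFAD mice carry familial Alzheimer's disease transgenes, mutant human APP among them, driven by the neuronal Thy1 promoter and form amyloid plaques, and PLX5622 inhibits CSF1R, the receptor kinase on which microglia depend for survival. The region called thalamus was dissected together with the striatum, and the labels do not state the sex of each mouse or whether the 3 regions of a replicate number came from 1 mouse.

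Cells release ATP, ADP and UTP when they are active or damaged, and microglia read these nucleotides through ATP-gated ion channels (P2X) and G protein-coupled receptors (P2Y). P2RY12 senses ADP and directs microglial processes toward an injury, P2RY13 is a second ADP receptor, P2RY6 senses UDP and promotes phagocytosis, and GPR34 is a related receptor that binds lysophosphatidylserine. P2RX4 and P2RX7 are channels opened by ATP, the latter by high concentrations that lead to inflammasome activation, and ENTPD1 (CD39) is the cell surface enzyme that breaks ATP and ADP down to AMP.

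P2ry13 and P2ry12 are neighbours on chromosome 3. By RefSeq on GRCm38.p6 (mm10) they lie at chr3:59207892-59210882 and chr3:59216271-59262985, 5388 bases apart, both on the minus strand and both inside Med12l, which runs on the other strand. P2rx7 and P2rx4 are neighbours as well, at chr5:122643927-122692336 and chr5:122707518-122729739 on the plus strand, with 15181 bases between them. Gpr34 lies at chrX:13622650-13640859 within Cask, P2ry6 at chr7:100937630-100975498 and Entpd1 at chr19:40612366-40741602. Exons of P2ry12 overlap exons of Med12l, and because strand-specific counting is not stated, reads there cannot be told apart. Med12l itself read between 9.27 and 15.6 RPKM in all 48 libraries, with a median of 12.9 on vehicle and 12.4 on PLX5622, and did not separate by diet as P2ry12 did.

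Stretches of 250 bases before a RefSeq start are shown for both genes of the chromosome 3 pair, which both fell with PLX5622 below, and for P2rx4, which changed far less. Sequences are from RefSeq (GRCm38.p6), in the direction of transcription, at chr3:59262986-59263235 (minus strand) for P2ry12, chr3:59210883-59211132 (minus strand) for P2ry13 and chr5:122707294-122707543 (plus strand) for P2rx4, whose start in that table lies inside the annotated gene, so its stretch runs past the gene's first base. Capitals mark the letters AGGAAG, a purine-rich stretch of the kind that ETS family factors such as the myeloid factor PU.1 recognise, which was searched on both strands and chosen after these sequences had been read.
P2ry12: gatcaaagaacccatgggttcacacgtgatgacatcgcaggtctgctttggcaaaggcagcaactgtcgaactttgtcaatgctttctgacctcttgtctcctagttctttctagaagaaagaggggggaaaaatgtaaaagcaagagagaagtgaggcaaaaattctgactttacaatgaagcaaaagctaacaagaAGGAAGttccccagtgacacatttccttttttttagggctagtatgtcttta
P2ry13: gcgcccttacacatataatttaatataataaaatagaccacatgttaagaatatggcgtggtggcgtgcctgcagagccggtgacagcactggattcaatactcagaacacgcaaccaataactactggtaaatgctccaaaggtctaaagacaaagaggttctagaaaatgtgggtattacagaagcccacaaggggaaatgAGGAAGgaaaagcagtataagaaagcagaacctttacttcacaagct
P2rx4: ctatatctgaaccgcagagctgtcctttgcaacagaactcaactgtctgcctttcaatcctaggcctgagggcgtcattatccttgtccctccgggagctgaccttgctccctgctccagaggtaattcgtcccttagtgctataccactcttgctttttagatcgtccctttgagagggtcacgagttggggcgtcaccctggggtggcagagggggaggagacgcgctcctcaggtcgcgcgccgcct
P2ry12 held 1 match starting 52 bases before its start and P2ry13 held 1 starting 47 bases before its start, while the P2rx4 stretch held 0. P2rx7 and Entpd1 each have 2 promoters in the table, of which the first held 0 matches and the second held 1 for P2rx7 and 2 for Entpd1. AGGAAG or its reverse complement was found in 29.5% of the 32851 promoter stretches of this length, so a match is common. Both chromosome 3 promoters were 41.6% G and C, with 3 CG dinucleotides for P2ry12 and 5 for P2ry13, against 57.2% and 13 for P2rx4 and a median of 52.4% and 6 over all stretches. Promoters of 5 of the 7 genes were matched, and Gpr34 and P2ry6 are named without one.

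Recovered reads summed to between 6194563 and 16021765 per library, and a gene's precision follows its reads. P2ry12 had up to 595 reads in a library and P2ry6 at most 56. The label of microglia was checked with 10 reference markers (among them Csf1r, Cx3cr1, Tmem119, Siglech, Itgam, Fcrls, Selplg and Sall1), all 10 of which were in the table and seen in every group. Their summed level was 107 to 131 RPKM per library in untreated wild-type mice, 170 to 269 in untreated 5xFAD mice, 14.2 to 33.0 in treated wild-type mice and 19.0 to 91.6 in treated 5xFAD mice. Markers of border macrophages (5 of 7 in the table) summed to 1.22 to 5.62 RPKM on vehicle and to at most 1.94 on PLX5622, and limma called 3 to 5 of these 5 genes and 9 or 10 of the 10 microglial markers lower in each comparison. Red blood cell markers (3 of 4 in the table) summed to 21.6 to 46.6 RPKM on vehicle and 27.1 to 141 on PLX5622, with 0 of 3 called, and the part of these lists in the results was not tested. In bulk tissue, fewer cells of a type and less RNA per cell cannot be told apart.

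**Figure D1:**
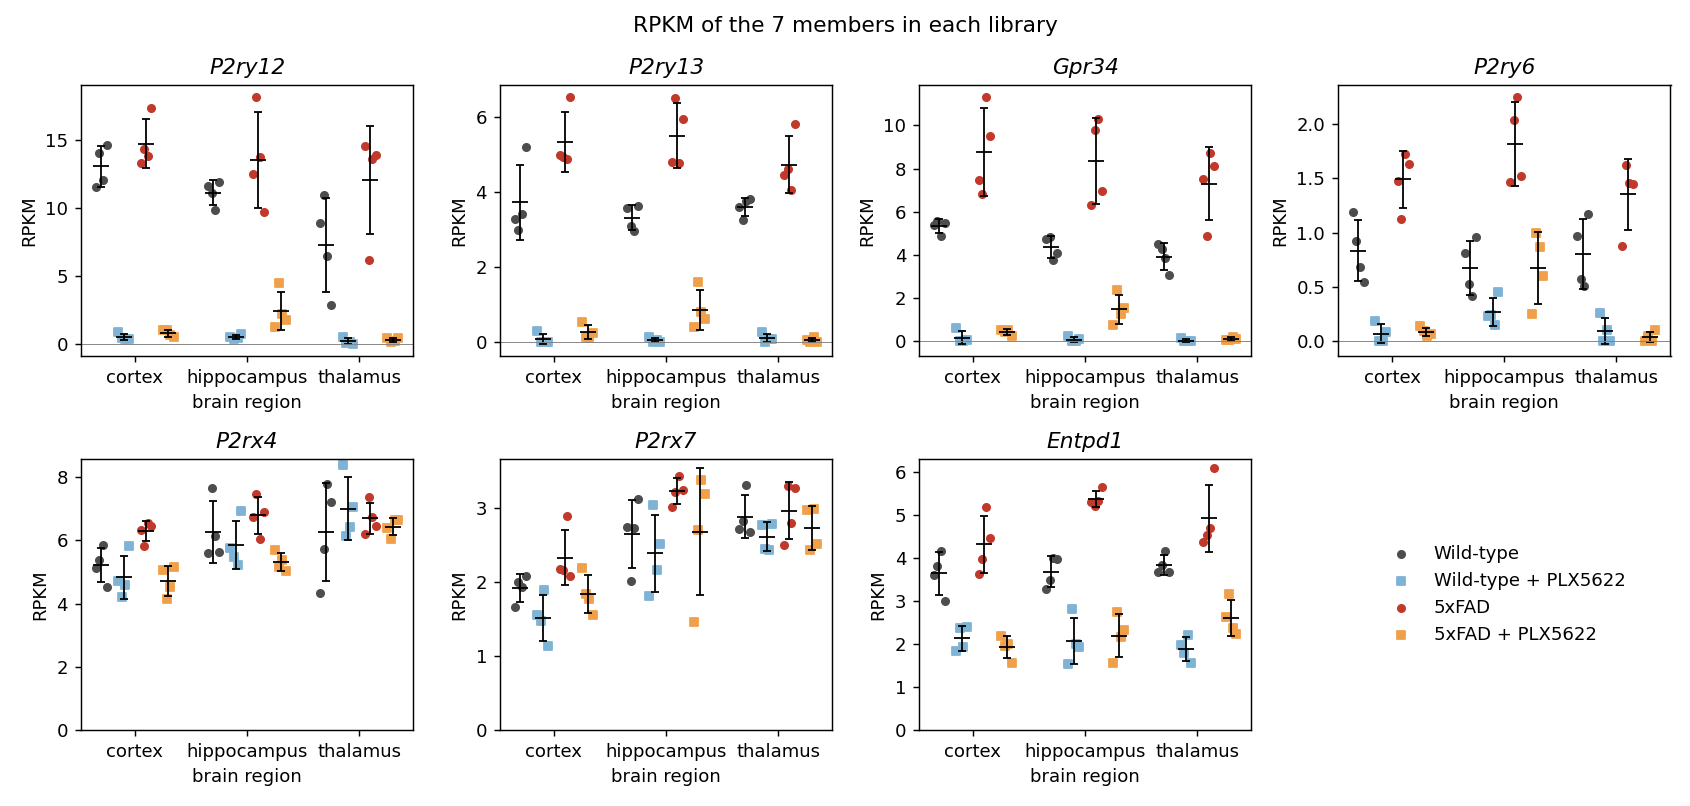
RPKM of each of the 7 genes in every library, by region and group, with the mean and SD of each 4 libraries as black bars. Within each genotype the 12 untreated libraries all sit above the 12 treated ones for P2ry12, P2ry13 and Gpr34, while P2rx4 and P2rx7 overlap between the diets in most regions.

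In untreated brain, the mean over 24 libraries was 11.9 RPKM for P2ry12, 6.34 for Gpr34, 6.25 for P2rx4, 4.37 for P2ry13, 4.30 for Entpd1, 2.66 for P2rx7 and 1.16 for P2ry6. Since RPKM is per length, these levels can be set side by side. Over the 24 treated libraries the order was different, with P2rx4 at 5.68, P2rx7 at 2.30, Entpd1 at 2.14, P2ry12 at 0.786, Gpr34 at 0.392, P2ry13 at 0.223 and P2ry6 at 0.202 RPKM. Thus the ADP receptor that led the untreated brain fell below both ATP-gated channels in the treated brain.

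The first question was what sustained CSF1R inhibition did to each gene. The metabotropic receptors P2ry12, P2ry13 and Gpr34 fell in all 3 regions of both genotypes, with log2 differences of -4.99 to -4.27 in wild-type mice and -5.18 to -2.47 in 5xFAD mice. P2ry6 fell in 5 of the 6 comparisons, Entpd1 fell in all 6 but by far less, P2rx4 fell in 1 and P2rx7 in 0. In all, 14 of 21 gene and region combinations were called lower in wild-type mice and 16 of 21 in 5xFAD mice, and 0 were called higher (limma on log2(RPKM + 0.1), Benjamini-Hochberg adjusted over 15 comparisons together, threshold 0.05). The share of all genes called lower was 1.34% in wild-type cortex, 2.44% in wild-type hippocampus, 3.3% in wild-type thalamus, 2.05% in 5xFAD cortex, 2.27% in 5xFAD hippocampus and 2.42% in 5xFAD thalamus. Genes called higher made up 0.0376, 0.332 and 0.545% of cortex, hippocampus and thalamus comparisons in wild-type mice, and 0.0814, 0.689 and 0.344% in 5xFAD mice. The members' median difference was between -3.45 and -1.09 in the 6 comparisons, beside a median of all genes of at most 0.02.

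P2ry12 read 11.5, 14, 12 and 14.6 RPKM in wild-type cortex and 0.852, 0.425, 0.335 and 0.386 with PLX5622. In 5xFAD cortex it read 13.3, 14.3, 13.8 and 17.3 RPKM untreated and 1.00, 1.01, 0.673 and 0.494 treated. The groups stood far apart, and treated cortex kept 3.84 ± 1.83% (SD, n = 4) of the wild-type level and 5.41 ± 1.73% of the 5xFAD level. The fold changes were -4.51 (SE 0.374, limma adjusted p = 5.74e-11) in wild-type and -4.09 (SE 0.374, limma adjusted p = 5.05e-10) in 5xFAD cortex. In thalamus 2.88 ± 3.04% of the wild-type level and 2.59 ± 1.28% of the 5xFAD level were left. Hippocampus differed between the genotypes in its values, with 4.44 ± 1.36% left in wild-type and 17.9 ± 10.4% in 5xFAD mice.

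P2ry13 read 3.27, 2.98, 3.42 and 5.21 RPKM in wild-type cortex, and with PLX5622 0.278 in replicate 1 and 0 in the other 3 libraries. Only 6 reads were counted in that treated group against 401 in the untreated one. P2ry13 was at or near 0 in treated wild-type hippocampus (5 reads in 4 libraries) and thalamus (13 reads), and in treated 5xFAD thalamus (4 reads). The level left was 0.839 to 4.6% of untreated in 5 of the 6 comparisons and 15.4 ± 9.52% in 5xFAD hippocampus. Because so many treated libraries were at 0, the fitted fold changes, -5.18 to -2.70, depend on the pseudocount and are no bound.

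Gpr34 behaved the same way in its values. It read 5.41, 5.59, 4.88 and 5.50 RPKM in wild-type cortex and 0.618, 0, 0 and 0.0792 with PLX5622, and 4.51, 4.26, 3.86 and 3.08 RPKM in wild-type thalamus against 0.146 in treated replicate 1 and 0 in the other 3. The level left ran from 0.927 ± 1.85% in wild-type thalamus to 5.10 ± 1.66% in 5xFAD cortex, and was 18 ± 8.02% in 5xFAD hippocampus. In the treated wild-type cortex, replicate 1 alone held 17 of 36 P2ry12 reads, 6 of 6 P2ry13 reads, 10 of 11 Gpr34 reads and 3 of 4 P2ry6 reads. Without it the level left in that group was 2.94% for P2ry12, 0% for P2ry13, 0.494% for Gpr34 and 3.14% for P2ry6, and each gene stayed called.

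P2ry6, the UDP receptor, was the scarcest member and fell less evenly. In cortex it read 1.19, 0.922, 0.682 and 0.540 RPKM in wild-type mice and 0.183, 0, 0 and 0.0785 with PLX5622, a difference of -2.59 (SE 0.372, limma adjusted p = 8.65e-06) with no overlap. In wild-type hippocampus it read 0.807, 0.529, 0.414 and 0.957 RPKM against 0.229, 0.237, 0.144 and 0.450 with PLX5622. Those groups overlapped, and 39.2 ± 19.2% was left, a difference of -1.09 (SE 0.372, limma adjusted p = 0.0823) that was not called. In 5xFAD hippocampus 37.2 ± 18.4% was left and the difference of -1.41 was called (SE 0.372, limma adjusted p = 0.0169). That call ended without treated 5xFAD hippocampus replicate 1 (limma adjusted p = 0.0989) and without untreated replicate 3 (limma adjusted p = 0.0544), and the wild-type one passed without treated wild-type hippocampus replicate 4 (limma adjusted p = 0.0446). With a pseudocount of 0.01 neither P2ry6 nor Gpr34 was called in 5xFAD hippocampus (limma adjusted p = 0.337 and 0.0914), and P2ry6 was not with each region fitted alone (0.0979). In the other 4 comparisons 2.62 to 11% of the P2ry6 level was left.

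**Figure D2:**
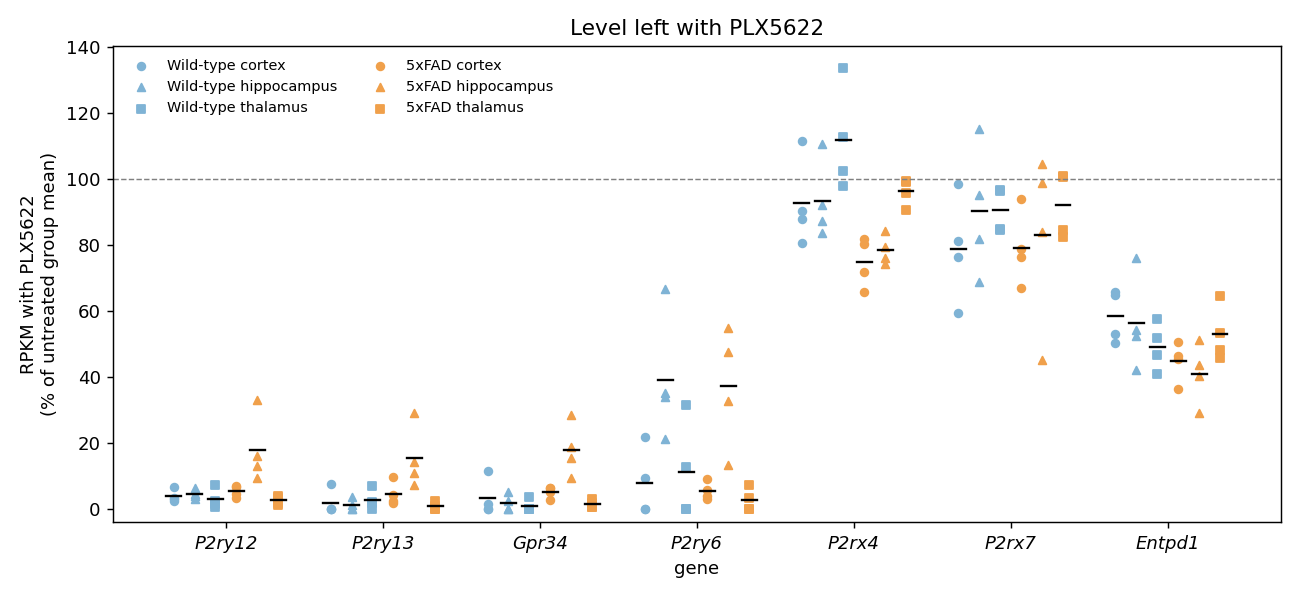
RPKM of each treated library as a percent of the mean of the 4 untreated libraries of the same genotype and region, with the mean as a bar and the untreated mean as a dashed line. P2ry12, P2ry13 and Gpr34 have means of 0.839 to 5.41% in every group but 5xFAD hippocampus, Entpd1 means lie between 40.9 and 58.5%, and P2rx4 and P2rx7 means between 75.0 and 112%.

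Entpd1, the ectonucleotidase, fell to about the same intermediate level everywhere. It read 3.60, 3.83, 4.17 and 3.00 RPKM in wild-type cortex and 1.84, 2.37, 1.93 and 2.40 with PLX5622, and 5.31, 5.21, 5.34 and 5.66 RPKM in 5xFAD hippocampus against 1.56, 2.75, 2.16 and 2.34 when treated. Treated and untreated libraries did not overlap in any of the 6 comparisons. Of all genes, 2.84, 8.32 and 3.46% were lower without overlap in wild-type cortex, hippocampus and thalamus, and 3.6, 4.06 and 3.96% in 5xFAD. The difference ran from -0.75 (SE 0.153, limma adjusted p = 0.00146) in wild-type cortex to -1.28 (SE 0.153, limma adjusted p = 2.42e-07) in 5xFAD hippocampus. With 49 to 369 reads in every library, Entpd1 was measured well in treated brain, at 1.89 to 2.61 RPKM by group. Endothelial cells, which also carry ENTPD1, had marker sums (Cldn5, Pecam1, Flt1, Cdh5 and Ly6c1, 5 of 5 in the table) of 30.5 to 58.1 RPKM with treatment and 30.9 to 56.4 without, and their part in the Entpd1 level was not tested.

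The ATP-gated channels stayed near their untreated levels. P2rx7 was called in none of the 6 comparisons, with differences from -0.34 (95% interval -0.69 to 0.01) in wild-type cortex to -0.11 (95% interval -0.47 to 0.24) in 5xFAD thalamus. Without treated 5xFAD hippocampus replicates 3 and 4, which held liver transcripts, P2rx7 was called lower in 5xFAD hippocampus (-0.67, limma adjusted p = 0.0332). P2rx4 kept 92.5 ± 13.2% of its level in wild-type cortex, 93.4 ± 12% in wild-type hippocampus and 112 ± 15.9% in wild-type thalamus. In 5xFAD cortex P2rx4 read 6.33, 5.83, 6.53 and 6.46 RPKM untreated and 5.05, 4.13, 4.52 and 5.15 treated, without overlap. The difference was -0.41 (SE 0.126, limma adjusted p = 0.0469, or 0.11 adjusted by itself), and the call was lost when any 1 of 26 of the 48 libraries was left out (limma adjusted p between 0.0182 and 0.145 over all 48). In 5xFAD hippocampus 78.3 ± 4.32% of P2rx4 was left, again without overlap, but the difference of -0.34 was not called (SE 0.126, limma adjusted p = 0.117).

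Because microglial genes fell as a whole, each member was also read against the mean of the 10 reference markers in the same library, on the log2(RPKM + 0.1) scale. The reference itself differed by -4.11 to -3.61 log2 units with PLX5622 in 5 of the 6 comparisons and by -2.34 in 5xFAD hippocampus. Gpr34 lay lower against the reference without overlap between the diets in 5 comparisons, P2ry13 in 4 and P2ry12 in 1, each at an exact permutation p of 0.0286, the smallest that 4 against 4 libraries allow (two-sided, 42 such tests). The shift of Gpr34 was -1.14 in wild-type thalamus and -0.42 in 5xFAD cortex. Of all tested genes, 0.0438, 0.0814 and 0.0501% lay this low relative to the reference without overlap in wild-type cortex, hippocampus and thalamus, and 0.0376, 0.025 and 0.0939% in 5xFAD. P2ry6 instead stood 0.47 to 2.62 above the reference's fall, without overlap in 4 comparisons, and P2rx4, P2rx7 and Entpd1 in all 6. The lower position of the 3 receptors depended on how the reference was summarised. With the median of the 10 markers in each library, a choice made after seeing the data, P2ry12 was lower without overlap in 0 comparisons, P2ry13 in 1 (5xFAD hippocampus, -0.50) and Gpr34 in 1 (wild-type cortex, -0.36), and P2ry12 in wild-type cortex stood at -0.03 and P2ry13 in wild-type thalamus at 0.05. The higher position of P2ry6, P2rx4, P2rx7 and Entpd1 holds little information, since 94.5 to 99.4% of all genes did so in the 6 comparisons. P2ry6 read 0.677 to 0.834 RPKM by group in untreated wild-type regions and 1.35 in untreated 5xFAD thalamus. With 0.1 added, P2ry6 could not fall as far there as the reference did, even with no reads.

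The second question was whether plaque-bearing 5xFAD brain differed from wild-type on control chow. All 7 genes had higher means in 5xFAD mice in all 3 regions, but limma called 2 of the 21 differences, P2ry6 and Entpd1 in hippocampus. Among all genes, cortex had 0.714% called higher and 0.0188% lower, hippocampus 1.54 and 0.419%, and thalamus 0.407 and 0.00626%. The members' median difference was 0.27, 0.54 and 0.37 in these regions, beside a median of all genes within 0.01 of 0. The limma error was pooled with treated libraries at or near 0, and with the 24 untreated libraries alone 7 of 21 were called, with 1.18, 2.01 and 0.764% of all genes called higher.

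Gpr34 was higher in 5xFAD mice without overlap in every region. It read 5.41, 5.59, 4.88 and 5.50 RPKM in wild-type cortex and 7.48, 6.81, 11.3 and 9.49 in 5xFAD cortex, 4.73, 4.85, 3.76 and 4.10 against 6.32, 9.80, 10.3 and 6.97 in hippocampus, and 4.51, 4.26, 3.86 and 3.08 against 7.52, 4.87, 8.74 and 8.10 in thalamus. The ratio of means was 1.64, 1.92 and 1.86, with an exact permutation p of 0.0286 each, or 0.075 when adjusted over the 21 genotype tests. By limma over all 48 libraries the differences of 0.68, 0.90 and 0.86 were not called (adjusted p = 0.448, 0.245 and 0.277), and over the 24 untreated libraries they were (adjusted p = 0.031, 0.00547 and 0.00748). In total 8 of 21 differences showed no overlap, all of them higher in 5xFAD and each at an adjusted exact permutation p of 0.075. Of all genes, 3.44, 3.92 and 1.41% were higher without overlap in cortex, hippocampus and thalamus.

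P2ry6 showed the largest ratio among the members, in hippocampus. It read 0.807, 0.529, 0.414 and 0.957 RPKM in wild-type and 1.47, 2.04, 2.25 and 1.52 in 5xFAD hippocampus, which did not overlap. The difference of 1.34 was called (SE 0.372, 95% interval 0.59 to 2.09, limma adjusted p = 0.0247), but not with the comparison adjusted by itself (limma adjusted p = 0.0758), with a pseudocount of 0.01 (0.386) or with each region fitted alone (0.126). The call also ended without 5xFAD hippocampus replicate 2 (limma adjusted p = 0.0611) or 3 (0.0738), or wild-type hippocampus replicate 2 (0.0631) or 3 (0.0915). In cortex and thalamus the ratios were 1.79 and 1.68, with overlap and without a call.

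Entpd1 read 3.28, 3.49, 4.01 and 3.99 RPKM in wild-type hippocampus and 5.31, 5.21, 5.34 and 5.66 in 5xFAD hippocampus, without overlap. The difference was 0.54 (SE 0.153, 95% interval 0.23 to 0.84, limma adjusted p = 0.0298), and the adjusted p was 0.0867 with the comparison adjusted by itself and 0.278 with each region fitted alone. It was no longer called without 5xFAD hippocampus replicate 1 (limma adjusted p = 0.0526), 3 (0.0546) or 4 (0.0661), or wild-type hippocampus replicate 1 (0.0929) or 2 (0.0673). P2ry13 was 1.66 times higher in hippocampus and 1.31 times in thalamus, both without overlap, and 1.43 times in cortex with overlap. P2rx4 and P2rx7 had ratios of 1.03 to 1.22 and overlapped in all 3 regions.

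P2ry12, the usual marker of resting microglia, was 1.13 times higher in 5xFAD cortex, 1.21 times in hippocampus and 1.65 times in thalamus, with overlap in each. The microglial reference was higher in 5xFAD mice by 0.64, 0.86 and 0.55 log2 units in cortex, hippocampus and thalamus. Against it P2ry12 stood at 0.59 ± 0.14 (SD, n = 4) in wild-type and 0.13 ± 0.20 in 5xFAD cortex, and at 0.37 ± 0.16 and -0.25 ± 0.39 in hippocampus. Both differences, -0.46 and -0.62, were without overlap (exact permutation p = 0.0286, or 0.075 adjusted over the 21 genotype tests), but 68.1 and 76.0% of all genes were lower against the reference in this way. Against the median of the 10 markers they were -0.43 and -0.63, with overlap (exact permutation p = 0.0571 each). P2ry13 and Gpr34 differed from the reference by -0.18 to 0.31 in the 3 regions, with overlap, and P2ry6 by 0.17 to 0.48. Against 10 myeloid-wide genes in place of the microglial markers, P2ry12 stood at -0.88 in cortex and -1.15 in hippocampus, without overlap (unadjusted exact permutation p = 0.0286 each). In thalamus P2ry12 stood at -0.13, with overlap (unadjusted exact permutation p = 0.8286). P2ry6 stood at -0.25, -0.06 and -0.2 in cortex, hippocampus and thalamus, with overlap. P2ry13 stood at -0.52, -0.69 and -0.55 in these regions, without overlap in the latter pair (unadjusted exact permutation p = 0.0286). Gpr34 stood at -0.37 (unadjusted exact permutation p = 0.0286), -0.50 and -0.07, so its direction turned with the reference. The myeloid-wide genes were themselves higher in 5xFAD mice, by 1.05, 1.4 and 0.92 log2 units. P2rx4, P2rx7 and Entpd1 stood at -1.28 to -0.58 against them, without overlap in all 3 regions. The share of all genes that lay this low against the myeloid-wide genes was not counted.

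**Figure D3:**
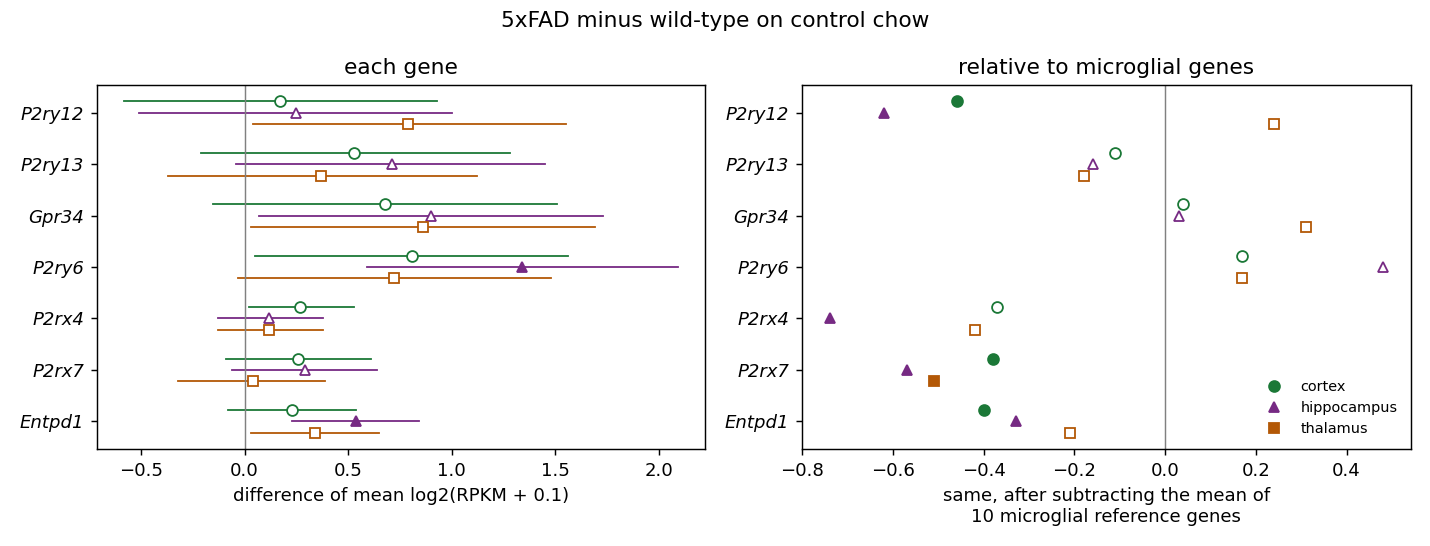
Difference between 5xFAD and wild-type mice on control chow for each gene and region on the log2(RPKM + 0.1) scale (left, with 95% intervals) and after subtracting the mean of 10 microglial reference genes in each library (right). Filled symbols mark limma calls on the left (P2ry6 and Entpd1 in hippocampus) and groups without overlap on the right, a separation that P2ry12 lost against the median of these genes, where P2ry12 lies at -0.46 in cortex and -0.62 in hippocampus.

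P2ry12 in thalamus was uneven between libraries of 1 group. It read 8.91, 10.9, 6.46 and 2.87 RPKM in wild-type and 14.5, 6.13, 13.6 and 13.9 RPKM in 5xFAD thalamus, while P2ry13 stayed between 3.26 and 3.80 and between 4.05 and 5.81 in the same libraries. The ratio of P2ry12 to P2ry13 was 0.756 to 3.35 in wild-type and 1.33 to 3.35 in 5xFAD thalamus. It was 3.24 to 3.59 in wild-type and 1.63 to 2.88 in 5xFAD hippocampus, and 2.8 to 4.69 and 2.65 to 2.9 in cortex. In wild-type thalamus replicate 4, the low one, Cx3cr1 read 10.9 RPKM, Tmem119 7.70 and Csf1r 21.4, within or above the 10.3 to 12.1, 6.38 to 7.11 and 19.6 to 21.2 of the other 3. Gpr34 was lowest of its group in the same libraries, at 3.08 RPKM in wild-type replicate 4 and 4.87 in 5xFAD replicate 2, and so was Med12l, at 11.8 and 11.6 RPKM. Outside thalamus, P2ry12 and Med12l were also both lowest of their group in 5xFAD hippocampus replicate 4, at 9.71 and 9.78 RPKM.

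Between regions of untreated mice, 0 of 42 member differences were called by limma. Of all genes in wild-type mice, 2.85% were called higher and 1.46% lower in hippocampus than cortex, 8.97 and 9.28% in thalamus than cortex, and 5.55 and 5.75% in hippocampus than thalamus. In 5xFAD mice these shares were 3.09 and 2.27%, 5.91 and 6.1%, and 3.04 and 2.45%. At an unadjusted p under 0.05 there were 5 such differences, and voom on recovered reads called 2. The nearest to a call was P2rx7 in wild-type mice, at 2.72, 2.83, 3.31 and 2.68 RPKM in thalamus and 1.66, 2.00, 1.94 and 2.09 in cortex. These did not overlap, and the difference was 0.56 (SE 0.174, limma adjusted p = 0.0512, and 0.0146 with the 24 untreated libraries alone). Oligodendrocyte markers (among them Mbp, Mog and Mag, 5 of 5 in the table) summed to 816 to 1410 RPKM in wild-type thalamus and 542 to 659 in wild-type cortex, and their part in this difference was not tested. That difference was called when any 1 of 10 libraries was left out, down to 0.0126 without treated 5xFAD hippocampus replicate 1. P2rx4 was called higher in wild-type thalamus than cortex without thalamus replicate 1 (0.39, limma adjusted p = 0.0432). P2rx7 was called higher in untreated 5xFAD hippocampus than cortex without treated 5xFAD hippocampus replicate 1 (limma adjusted p = 0.047) and with the untreated libraries alone (0.0407). P2ry12 in wild-type thalamus against cortex stood at -0.97 (SE 0.374, limma adjusted p = 0.14), at -1.02 with voom, which called it (0.0103), and at -0.59 without the low thalamus replicate 4 (0.501).

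The third question was what remained after depletion, and here 5xFAD hippocampus stood apart for P2ry12, P2ry13 and Gpr34. P2ry12 read 1.26, 4.44, 2.17 and 1.76 RPKM in treated 5xFAD hippocampus against 0.500, 0.340, 0.433 and 0.697 in treated wild-type hippocampus, without overlap. P2ry13 read 0.400, 1.60, 0.786 and 0.604 RPKM against 0.116, 0, 0.0364 and 0, and Gpr34 read 0.779, 2.38, 1.28 and 1.56 RPKM against 0.231, 0, 0 and 0.101. All 3 were called higher, by 1.97 for P2ry12 (SE 0.374, limma adjusted p = 0.00147), by 2.70 for P2ry13 (SE 0.368, limma adjusted p = 5.83e-06) and by 3.22 for Gpr34 (SE 0.409, limma adjusted p = 2.04e-06), where 0.764% of all genes were. P2ry12 was not called by voom on recovered reads (limma adjusted p = 0.261). P2ry6 read 0.244, 1.00, 0.864 and 0.598 RPKM against 0.229, 0.237, 0.144 and 0.450, with overlap, and was not called (difference 1.02, SE 0.372, limma adjusted p = 0.26). The same comparison gave 0 calls of 7 in cortex and 0 of 7 in thalamus, with 2 and 1 members at an unadjusted p under 0.05 and 0.0626 and 0.0313% of all genes called higher. The share called lower on PLX5622 was 0.0438% in hippocampus, 0.0% in cortex and 0.00626% in thalamus. Without treated wild-type cortex replicate 1, Gpr34 (2.13, limma adjusted p = 0.000975) and P2ry13 (1.65, limma adjusted p = 0.026) were called higher in 5xFAD cortex.

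Within treated 5xFAD mice, P2ry12, P2ry13, Gpr34 and P2ry6 were all higher in hippocampus than in thalamus, by 2.54, 2.69, 2.91 and 2.45 log2 units (limma adjusted p between 3.73e-07 and 2.59e-06), and higher than in cortex by 1.38, 1.45, 1.49 and 1.99 (limma adjusted p between 0.0015 and 0.0196). In these comparisons 13.8 and 5.42% of all genes were called higher and 12.7 and 2.36% lower. P2rx4, P2rx7 and Entpd1 were called in neither, but without hippocampus replicate 1, its lowest library at 1.46 RPKM, P2rx7 was called higher than in cortex (0.72, limma adjusted p = 0.00142). The calls against cortex for P2ry12, P2ry13 and Gpr34 ended with voom (limma adjusted p = 0.179, 0.0706 and 0.0817) and with the 24 treated libraries alone (0.058, 0.0866 and 0.105), and those for P2ry13 and Gpr34 with a pseudocount of 0.01 (0.179 and 0.243). They also ended for P2ry12, P2ry13 and Gpr34 without treated 5xFAD hippocampus replicate 2 (limma adjusted p = 0.0935, 0.0689 and 0.0772) or 3 (0.069, 0.0562 and 0.0652), and each also with 2 or 3 other treated 5xFAD libraries left out, while P2ry6 kept its call. These other libraries were cortex replicates 3 and 4 for P2ry12 (0.0511 and 0.0821), cortex replicates 2 and 3 for P2ry13 (0.0574 and 0.0592), and cortex replicates 2 and 4 and hippocampus replicate 4 for Gpr34 (0.052, 0.0898 and 0.0631). With replicate 2, the highest of the 4 for each of these genes, the hippocampal values were also the most spread. P2ry6 had its highest mean in hippocampus in treated wild-type mice as well, at 0.265 RPKM against 0.0886 in thalamus and 0.0655 in cortex, with overlap. Its level left in hippocampus was 39.2% in wild-type and 37.2% in 5xFAD mice, so a higher hippocampal level of P2ry6 was not particular to 5xFAD.

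The difference of the PLX5622 effect between hippocampus and thalamus of 5xFAD mice was itself called for P2ry12 (2.33, SE 0.529, limma adjusted p = 0.0257), P2ry13 (2.48, SE 0.52, limma adjusted p = 0.0154) and Gpr34 (2.71, SE 0.579, limma adjusted p = 0.0169), with 0.576% of all genes called higher and 0.1% lower. P2ry12 was not called by voom (limma adjusted p = 0.141) or with a pseudocount of 1 (0.129), P2ry13 with a pseudocount of 0.01 (0.0664) or 1 (0.147), or Gpr34 with 0.01 (0.197). P2ry6 had 2.04 (SE 0.527, limma adjusted p = 0.0542) and was called by voom (0.039). All 3 calls were lost without treated 5xFAD hippocampus replicate 2 (limma adjusted p = 0.0897, 0.0533 and 0.0544). Gpr34 was also lost without treated 5xFAD thalamus replicate 1 (0.0544), and P2ry12 without untreated 5xFAD hippocampus replicate 3 (0.064), untreated 5xFAD thalamus replicate 1 (0.0716) or 3 (0.0537), or treated 5xFAD thalamus replicate 2 (0.0736). P2ry6 passed when any 1 of 7 libraries was left out, down to 0.0154 without treated 5xFAD hippocampus replicate 1. Between hippocampus and cortex the same difference was 1.40 to 1.73 for these 4 genes and was not called (limma adjusted p between 0.857 and 0.911), with 0 of all genes called and 4 members at an unadjusted p under 0.05. Between genotypes in hippocampus the difference of the effect was 1.72 for P2ry12, 2.00 for P2ry13 and 2.32 for Gpr34, short of a call (limma adjusted p = 0.107, 0.065 and 0.0547), where 0.307% of all genes were called higher and 0.025% lower. P2ry13 passed when any 1 of 6 libraries was left out and Gpr34 when any 1 of 8 was, down to 0.023 and 0.0229 without treated 5xFAD hippocampus replicate 1. In cortex 0.0% and in thalamus 0.00626% of all genes were called lower for this difference, and 0 of 7 members.

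Albumin transcripts of liver were high in 2 of the treated 5xFAD hippocampus libraries, at 634 RPKM in replicate 3 and 112 in replicate 4 against 0.952 and 3.34 in replicates 1 and 2. The next highest treated library was wild-type hippocampus replicate 4, at 39.4 RPKM. Without replicates 3 and 4 the genotype differences on PLX5622 were 2.1 for P2ry12, 2.81 for P2ry13 and 3.2 for Gpr34, all still called (limma adjusted p = 0.0146, 0.000353 and 0.000296), as were all 4 differences from thalamus, and 0 of the 4 differences from cortex was. Border macrophage markers summed to 0.284 to 1.43 RPKM in treated 5xFAD hippocampus, 0.239 to 0.821 in treated 5xFAD thalamus and 0.105 to 0.885 in treated wild-type hippocampus, which overlap. The microglial reference summed to 29.8 to 91.6 RPKM in treated 5xFAD hippocampus against 15.8 to 22.7 in treated wild-type hippocampus, so it moved with the 3 receptors. Against that reference, PLX5622 shifted P2ry12 by -0.21 and Gpr34 by -0.13 in 5xFAD hippocampus, with overlap, and P2ry13 by -0.37 without.

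**Figure D4:**
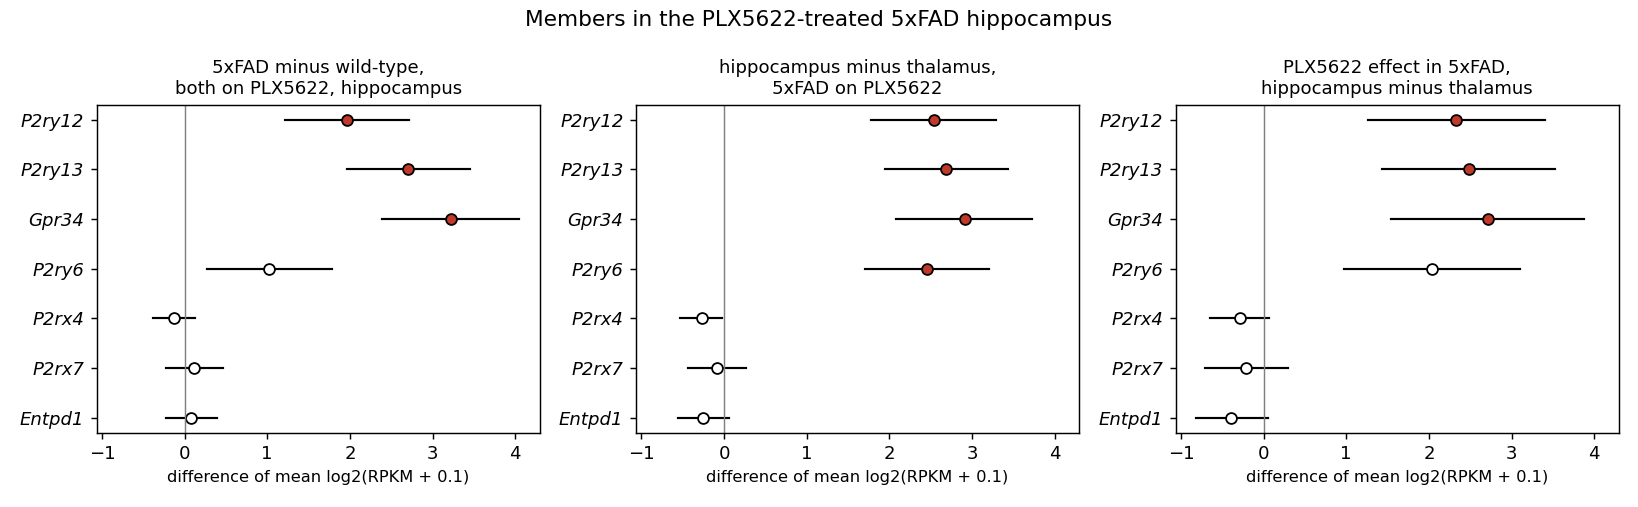
Differences on the log2(RPKM + 0.1) scale with 95% intervals for the 7 genes, between genotypes on PLX5622 in hippocampus (left), between hippocampus and thalamus of treated 5xFAD mice (middle), and between the PLX5622 effects in these regions (right). Filled points passed an adjusted p of 0.05, and P2ry12, P2ry13 and Gpr34 are filled in all 3 panels, with P2rx4, P2rx7 and Entpd1 near 0 in each.

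Over the 12 group means, P2ry13 was highest in 5xFAD hippocampus (5.50 RPKM), and P2ry12 (14.7) and Gpr34 (8.77) were highest in 5xFAD cortex. P2ry6 (1.82), P2rx7 (3.23) and Entpd1 (5.38) were highest in 5xFAD hippocampus, and P2rx4 was highest in treated wild-type thalamus (6.99). Most neighbours in these orders did not differ beyond their spread. Adjacent groups overlapped in 10 of 11 pairs for P2ry12 and P2ry13, in 8 of 11 for Gpr34 and in 11 of 11 for each of the other 4 genes. These pairs came from sorting the same means, and the share of all genes with such gaps was not counted. The gaps lay between treated 5xFAD hippocampus and treated 5xFAD cortex for P2ry12 (2.41 against 0.795 RPKM) and Gpr34 (1.50 against 0.447). Others lay between treated 5xFAD hippocampus and an untreated wild-type group for P2ry13 (0.847 against 3.31) and Gpr34 (1.50 against 3.93). For Gpr34 a gap also lay between wild-type cortex and wild-type hippocampus (5.34 against 4.36).

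Likeness of pattern was measured as the root mean square difference of the 12 centred group means of log2(RPKM + 0.1), over 13592 genes with a mean of at least 1 RPKM. The nearest genes to P2ry13 were Siglech (0.185), Itgam (0.218) and Fcrls (0.290), those to Gpr34 were Fcrls (0.188), Siglech (0.293) and Cx3cr1 (0.293), and those to P2ry12 were Siglech (0.382), Gpr34 (0.392) and Itgam (0.430). P2ry6 was nearest to Cyth4 (0.231) and Ptpn6 (0.373), at 1.04 from P2ry12, its fellow P2Y receptor. The low level of P2ry6 beside the added 0.1 limits its fall on this scale, and the part of that limit in the distance was not tested. Entpd1 was nearest to Fli1 (0.183), Adap2 (0.192) and E230029C05Rik (0.211). P2rx4 was nearest to Xdh (0.068), Sat1 (0.0769) and Nfkb1 (0.0796), and P2rx7 to Wasf2 (0.0661), Tln1 (0.0776) and Arap1 (0.0845), values that are small because these genes varied little. The chromosome 3 neighbours P2ry12 and P2ry13 differed by 0.435 from each other, more than either did from Siglech or from Gpr34 (0.343 for P2ry13). The chromosome 5 neighbours P2rx4 and P2rx7 differed by 0.168 from each other and by 2.13 to 2.22 from P2ry12 and P2ry13.

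Of 36 other genes of purinergic signalling (receptors for ATP, ADP, UTP and adenosine, ecto-enzymes, adenosine handling and ATP release), 28 were in the table and all 28 were tested. Of these, 1 passed in any of the 9 genotype and PLX5622 comparisons. In each PLX5622 comparison 1 of 28 was called lower, beside 1.34 to 3.3% of all genes. The called gene was Adora3, a receptor for adenosine, the end product of ATP breakdown outside the cell. It was called lower with PLX5622 in all 6 comparisons, at 0.204 ± 0.0454 RPKM in wild-type cortex and 0.527 ± 0.17 in 5xFAD cortex (SD, n = 4) and listed at 0 in all 4 treated wild-type cortex libraries. It was called higher in 5xFAD cortex (1.02, SE 0.273, limma adjusted p = 0.0191) and hippocampus (1.07, SE 0.273, limma adjusted p = 0.0131). Adora3 shares its locus with Tmigd3, so its reads are uncertain. Its group means were also low, at 0.204 to 0.209 RPKM in untreated wild-type regions and 0 to 0.118 in treated groups. These lie near or below the filter of 0.2 RPKM and the added 0.1. The median difference over the 28 genes with PLX5622 lay between -0.06 and 0.10 log2 units.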

How the data were processed

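The 48 libraries were grouped by the genotype, diet and region in the labels. Per the paper's methods, single-end reads of 50 bases were mapped by STAR (mm10) and summed per gene by featureCounts, and after a low-count filter the authors deposited RPKM for 16014 genes. Normalization factors were computed, but whether they entered the RPKM is not stated, and the labels and methods name different library kits. Libraries were sequenced in 4 pools of 12, which the labels do not assign to samples. Low RPKM values step in whole reads, and reads recovered from these steps were whole within 0.05 reads for all 16014 genes.

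RPKM values were taken as deposited and analysed as log2(RPKM + 0.1). Genes with at least 0.2 RPKM in at least 4 libraries were tested (15975). limma 3.58.1 (R 4.3.3, eBayes with trend) was run with 1 mean per group on the 48 libraries, with Benjamini-Hochberg adjustment across the study's 15 comparisons jointly. Comparisons within treated mice and differences of effects were adjusted each by itself. Under a joint adjustment the false calls can gather in comparisons where few genes change, such as genotype. Single values were tested by two-sided exact permutation of 4 against 4 libraries (smallest p 0.0286). Level left is the mean treated RPKM as a percent of the untreated mean. The fits were tested on simulated data.

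Named genes are the 7 members, other purinergic genes that were called, and the 3 genes nearest in pattern to each member. A few names that this rule or the marker lists hold are not reported here. Members and lists were chosen with earlier results of these data known. Exact permutation p-values rest on the libraries of the groups compared. In the main fit, limma p-values rest on a spread between libraries that was pooled over all 48. Alternatives were other pseudocounts, filters, scaling, fits, adjustment, voom (limma on weighted log counts) of recovered reads, and each library left out. Python 3.11.15 with scipy 1.17.1 was used for the remaining steps.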

Additional observations from a re-analysis of the deposited data

Results flagged for a closer look

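In 84 groups of 4 libraries (7 genes in 12 groups), 6 held a library far from the other 3. About 1 in 20 groups of independent, normally spread values would do so by chance, a rate that does not hold for groups with 3 libraries at 0. P2ry12 read 6.13 RPKM in 5xFAD thalamus replicate 2, below a next value of 13.6. P2ry13 read 0.278 RPKM in treated wild-type cortex replicate 1 with the other 3 at 0, and 6.53 RPKM in untreated 5xFAD cortex replicate 4 above a next value of 5.00. Gpr34 read 0.618 RPKM in treated wild-type cortex replicate 1 above a next value of 0.0792, and 0.146 RPKM in treated wild-type thalamus replicate 1 with the other 3 at 0. P2rx7 read 2.89 RPKM in untreated 5xFAD cortex replicate 3 above a next value of 2.18.

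The PLX5622 effect in 5xFAD mice differed between hippocampus and thalamus by a test of the difference itself for P2ry12 (2.33 log2 units), P2ry13 (2.48) and Gpr34 (2.71), each a smaller drop in hippocampus.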

How the results depend on the processing

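Calls for PLX5622 against vehicle stayed within 1.5 times of 14 of 21 in wild-type and 16 of 21 in 5xFAD mice under every alternative run. The 2 genotype calls on vehicle became 1 with a pseudocount of 0.01, 8 with a pseudocount of 1, 1 with a mean RPKM of at least 1, 0 with each region fitted alone, 0 with each comparison adjusted by itself, 7 with voom on recovered reads and 7 with the 24 untreated libraries alone. The 0 calls between regions on vehicle became 2 with a pseudocount of 1, each comparison adjusted by itself, voom or the untreated libraries alone, and 1 with rescaled libraries, eBayes without a trend, an Xist covariate, or without treated 5xFAD hippocampus replicates 3 and 4. Within treated 5xFAD mice the 8 calls between regions became 5 with voom, 5 with the 24 treated libraries alone and 4 without those replicates 3 and 4. The 3 calls for a region difference of the PLX5622 effect became 1 with a pseudocount of 0.01 or 1, and the 0 calls for a genotype difference became 2 with each region fitted alone. The cause of these changes was not tested.

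Correlations showed no clear pairing by replicate number. Every same-number correlation was above 0.1 in 0 of 12 pairs of groups of 1 genotype and diet and 0 of 18 of 1 region. Of the library pairs, 14 of 48 and 19 of 72 correlated best with their own number. Treated wild-type hippocampus and thalamus gave 0.309, 0.256, 0.449 and 0.099, just short of that rule. The rule therefore cannot decide whether the regions of a replicate number came from 1 mouse. With the replicate number as a block, and with the animal implied by group and number as a block, 1 region difference on vehicle was called in place of 0, P2rx7 in wild-type thalamus against cortex (adjusted p = 0.0493 and 0.0476), the number block ended the call of P2rx4 in 5xFAD cortex (0.0555), and the animal block also called P2ry6 for the effect difference between hippocampus and thalamus (0.0456).

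With 1 library left out, calls ran from 14 to 15 for PLX5622 in wild-type, 15 to 16 in 5xFAD, 0 to 2 for genotype on vehicle, 0 to 2 between regions on vehicle, 3 to 5 for genotype on PLX5622, 0 to 2 for the genotype difference of the effect, 5 to 9 between regions in treated 5xFAD and 0 to 4 for the region difference of the effect. Comparisons without overlap ran from 8 to 10 (8 with all libraries) between genotypes, 40 to 42 (40) relative to the reference (26 with the median of the reference genes, chosen after seeing the data) and 31 to 32 (31) for the level left. Directions turned only for values that were not called. With a pseudocount of 1 the genotype difference of the effect in cortex was -0.22 for P2ry13 and -0.27 for Gpr34, with 0.01 it was 0.38 for P2ry6, and in thalamus it was 1.48 for Gpr34 with 0.01 and 0.52 with voom. P2rx7 on PLX5622 in hippocampus was -0.23 between genotypes without treated 5xFAD replicates 3 and 4. With 1 library left out, P2rx7 ran from -0.3 to 0.09 for the genotype difference in hippocampus, -0.21 to 0.17 for treated 5xFAD hippocampus against thalamus, and -0.13 to 0.25 and -0.34 to 0.05 for the region differences against cortex and thalamus, each highest without treated 5xFAD hippocampus replicate 1. P2rx4 ran from -0.04 to 0.24 between genotypes in thalamus and from -0.14 to 0.13 between wild-type hippocampus and thalamus, lowest without wild-type thalamus replicate 1. edgeR and DESeq2, listed as alternatives, were not run because the deposited unit is RPKM. Treated libraries at 0 to a few reads limit every fold change of P2ry13, Gpr34 and P2ry6 on PLX5622.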
